A study of Mus musculus with 12 samples.

Results

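The probes described here were lower in mouse lung tumors 24 h after a mutant oncogene was switched off and back near their starting level at 48 h. They were chosen by their measured values: detection on at least 4 of 12 arrays, a mean at least 0.8 lower at 24 h than with the oncogene on, a mean at 48 h less than 0.3 lower than with the oncogene on, and all 4 values at 24 h below all 4 on values. The scale for this choice was the deposited log2 table. This gave 169 of 45281 probes, all of them among the 21232 tested, and 127 of them carried a single gene symbol, for 121 genes. Because the choice used the differences at 24 h and at 48 h, those differences are given below as a description, with no test of the members.

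RNA came from lung tumors microdissected from FVB/SV129 mice aged 19 weeks and snap-frozen. Each of the 3 groups held 4 samples: the mutant oncogene on, off for 24 h, and off for 48 h. How the oncogene was switched, which cells carried it and whether each sample came from another mouse are not given in the sources used here, so the spread between samples may be partly technical. Each sample was hybridised to an Illumina array, which reads every transcript with beads of a short probe.

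The arrays lay on 2 BeadChips. All 4 on arrays shared the first with replicates 1 and 2 of the 48 h group, and all 4 arrays at 24 h shared the second with replicates 3 and 4. Chip and group therefore cannot be told apart between on and 24 h. Per array, 42.5% to 46.2% of the probes gave a detectable signal. Markers of alveolar type 2 cells, such as the surfactant proteins, were bright in every group, with a mean log2 intensity of 11.61 to 12.47 per array over 26 probes.

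Growth factor signalling through the MAP kinase cascade switches on the immediate-early genes, a small set that is transcribed without new protein synthesis and includes the zinc-finger factors of the EGR family and the AP-1 subunits of the FOS and JUN families. Their messenger RNAs are short-lived, so their level follows transcription closely. Many of the other genes below encode general machinery of the nucleus and cytoplasm, among them chromatin remodellers, RNA helicases and ubiquitin ligases.

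The DNA just upstream of 3 of these genes is shown because they differ in kind: Fos is an immediate-early gene, Rictor gave the most member probes, and Elf3 is an epithelial transcription factor. The sequences run from 250 bases before to 50 bases after the RefSeq start in GRCm38.p6, with capitals for 3 motifs on either strand. The first motif is the GC box, which reads GGGCGG. The second, known as the CCAAT box, was searched as ATTGG and its reverse complement. The third is the TATA box, for which the search used the letters TATAAA. Fos lies at chr12:85473640-85473939 on the plus strand, Rictor at chr15:6708131-6708430 on the plus strand and Elf3 at chr1:135258423-135258722 on the minus strand.
Fos: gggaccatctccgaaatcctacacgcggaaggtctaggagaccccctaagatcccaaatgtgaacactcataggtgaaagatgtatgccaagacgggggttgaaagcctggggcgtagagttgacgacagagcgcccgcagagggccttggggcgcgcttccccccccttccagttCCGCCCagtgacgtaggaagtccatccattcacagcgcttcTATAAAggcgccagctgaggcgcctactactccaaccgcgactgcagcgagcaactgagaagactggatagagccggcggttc
Rictor: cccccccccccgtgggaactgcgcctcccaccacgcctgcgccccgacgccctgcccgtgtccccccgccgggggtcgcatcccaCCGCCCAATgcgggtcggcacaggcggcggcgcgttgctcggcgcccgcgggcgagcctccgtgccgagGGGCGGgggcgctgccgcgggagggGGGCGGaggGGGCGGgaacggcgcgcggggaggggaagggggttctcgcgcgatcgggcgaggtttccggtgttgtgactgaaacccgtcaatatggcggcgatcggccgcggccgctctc
Elf3: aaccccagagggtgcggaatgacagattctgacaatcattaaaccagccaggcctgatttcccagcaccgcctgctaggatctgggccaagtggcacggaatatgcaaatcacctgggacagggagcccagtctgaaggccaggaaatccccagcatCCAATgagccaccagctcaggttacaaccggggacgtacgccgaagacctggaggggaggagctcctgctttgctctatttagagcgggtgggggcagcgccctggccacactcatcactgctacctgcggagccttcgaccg
The Fos window held 1 TATA box and 1 GC box, the Rictor window 4 GC boxes and 1 CCAAT box that shared letters with 1 of them, and the Elf3 window 1 CCAAT box. RefSeq promoters matched 99 of the 121 genes. A GC box was present for 73 of these 99 (73.7%), against 66.8% of the 9181 genes tested and 38.2% of all 27025 genes with a promoter. A TATA box was present for 16.2% of member genes, 9.57% of tested genes and 15.7% of all genes. A CCAAT box was present for 31.3%, 42.2% and 41.1%. The E-box CACGTG was found for 6.06% of member genes and 11.5% of tested genes, the AP-1 site TGACTCA for 3.03% and 4.89%, the cyclic AMP element TGACGTCA for 5.05% and 3.43%, and the ETS site CCGGAAGT for 7.07% and 8.52%. The E2F sites TTTGGCGC and TTTCGCGC were found for 0 member genes and 1.75% of tested genes. The CArG box, the binding site of serum response factor, was found in these windows for 0 member genes and 1.68% of tested genes. It was searched after the data had been seen. All motifs were searched on both strands, from 250 bases before to 50 bases after the start only. Sites further away, also those of Fos, were not searched, so a count of 0 does not mean that a gene lacks the site.

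The drop at 24 h was moderate in size. On normalized log2 intensities the median member was 0.85 lower at 24 h than with the oncogene on, in signed terms -0.85 (interquartile range -0.94 to -0.76), and members ranged from -2.57 to -0.53. At 48 h the median difference from on was -0.03 (interquartile range -0.15 to 0.11, range -0.30 to 1.29). The median over all tested probes was -0.02 at 24 h and -0.01 at 48 h.

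In the fit across all tested probes (limma, adjusted p below 0.05), 156 of 169 members were called lower at 24 h, where 12.2% of all tested probes were. At 48 h 0 members were called lower than on, against 11% of tested probes. The 6 called higher compare with 9.66%: Golga2, Ubxn7, Tspan1, Kcnq1ot1, BC039771 and the unannotated probe ILMN_2419660. For 48 h against 24 h, 155 members were called higher, where 12.9% of tested probes were. In 133 members all 4 arrays at 48 h lay above all 4 at 24 h, which held for 13.2% of tested probes. The rule fixed these contrasts, so nothing is read from these counts.

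**Figure D1:**
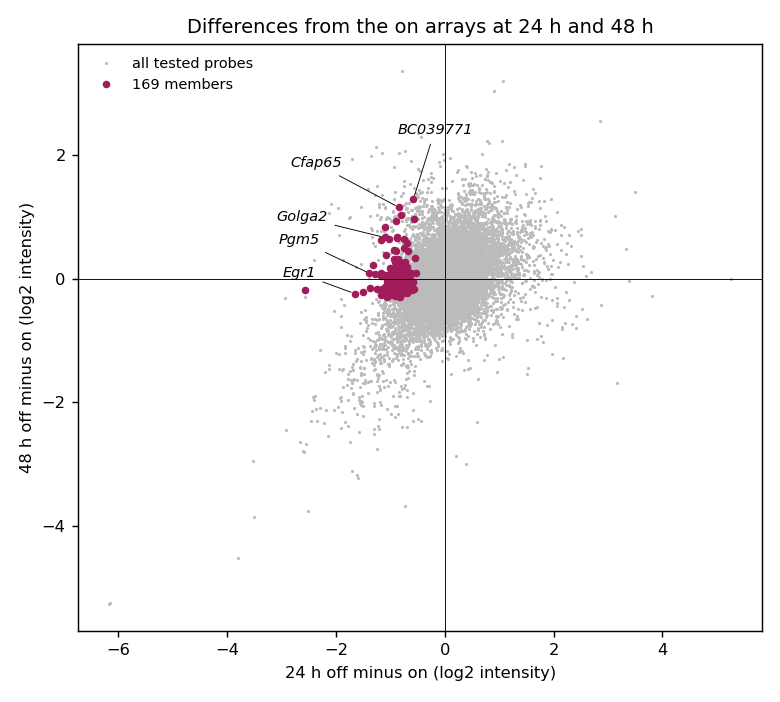
Each point is a probe, with its log2 difference from the on arrays at 24 h on the horizontal axis and at 48 h on the vertical axis, as means of 4 arrays. The 169 members lie left of 0 at 24 h, at -2.57 to -0.53, and between -0.30 and 1.29 at 48 h, and all 21232 tested probes are in grey.

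The return by 48 h was uneven across arrays. The median member lay 0.17 above its on mean on 48 h replicate 1 and 0.10 above it on replicate 2, but at -0.06 on replicate 3 and -0.35 on replicate 4. On replicate 4, 98 of 169 members were below their lowest on value, against 49 on replicate 3, 16 on replicate 1 and 15 on replicate 2. Replicate 4 was the lowest of the 48 h arrays for 113 of 169 members and for 31.5% of all tested probes. All 4 arrays at 48 h reached the lowest on value in 50 members, 3 of 4 did in 72, 2 of 4 in 37, 1 of 4 in 8 and none in 2. For the counts against the lowest on value no share of all tested probes is given, and the rule bears on them through the mean at 48 h.

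This unevenness moved with the BeadChip. Both 48 h arrays on the first chip lay above both on the second in 97 members (57.4%), which held for 21% of all tested probes. The median difference between the chips at 48 h, second minus first, was -0.35 for members and -0.01 for all tested probes. Within the first chip, 48 h minus on had a median of 0.14 over the members. Within the second, 48 h minus 24 h had a median of 0.69, and in 136 members both 48 h arrays lay above all 4 at 24 h, against 16.5% of tested probes.

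With the chip as a fixed term, an estimate that rests on the 48 h arrays alone, the median member was at -0.52 for 24 h against on, and 164 of 169 stayed below 0. The median SE rose from 0.19 to 0.29. Under that fit 2 members were called lower at 24 h (0.283% of tested probes were), and 51 were called higher at 48 h than at 24 h (2.35% of tested probes were). All 169 were above 0 for 48 h against 24 h, with a median of 0.69, the same value as within the second chip. The rule bears on these counts of signs, and no share of all tested probes is given for them, so nothing is read from them. For 24 h against on, the chip term moved Egr1 to -2.18, Fos to -1.67, Plxna2 to -0.87, Igf1r to -0.81, Elf3 to -0.78 and Golga2 to -0.37.

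**Figure D2:**
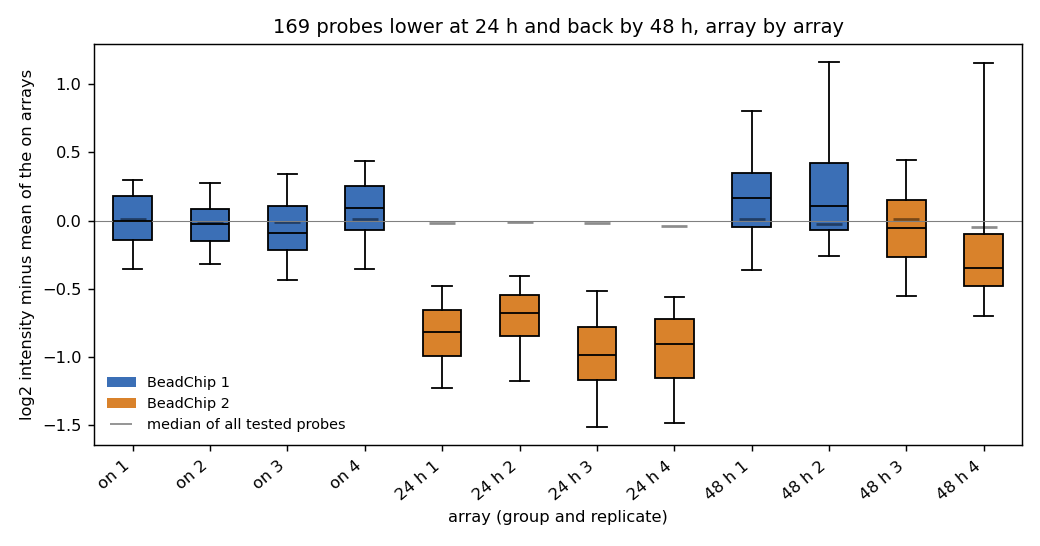
Boxes show, for each array, the log2 intensity of the 169 members minus the mean of the 4 on arrays, with the median, the quartiles and whiskers at the 5th and 95th percentiles. The 4 arrays at 24 h have medians from -0.99 to -0.68, and at 48 h the medians are 0.17 and 0.10 on BeadChip 1 and -0.06 and -0.35 on BeadChip 2.

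Among the transcription factors, the immediate-early gene Egr1 had the largest drop of any gene with a symbol after normalization. Its log2 intensity was 11.47, 11.49, 11.92 and 11.56 on the on arrays, 10.02, 9.84, 10.02 and 9.93 at 24 h, and 10.27, 11.95, 10.37 and 12.90 at 48 h. The values at 24 h were tightly grouped below every on value, while 48 h replicates 1 and 3 stayed near the 24 h level and replicates 2 and 4 were above every on value. The log2 difference was -1.66 at 24 h and -0.24 at 48 h (SE 0.45 each), so the mean at 48 h averages 2 low and 2 high tumors.

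Fos, an AP-1 subunit, divided the 48 h tumors in the same way. It read 9.61, 9.68, 9.43 and 9.81 with the oncogene on, 8.54, 8.42, 8.39 and 8.50 at 24 h, and 8.22, 10.01, 8.34 and 10.89 at 48 h. Replicates 1 and 3 at 48 h were lower than every 24 h value, and replicates 2 and 4 were higher than every on value. The log2 difference was -1.17 at 24 h and -0.27 at 48 h (SE 0.46 each).

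Egr3, another EGR factor, was dimmer. Its values were 6.65, 6.70, 6.34 and 6.14 on, 5.62, 5.57, 6.01 and 5.10 at 24 h, and 6.09, 6.16, 5.75 and 7.04 at 48 h. Only 48 h replicate 4 exceeded the on values, and replicate 3 lay within the 24 h range. Jund, a JUN-family AP-1 subunit, behaved more evenly, with 7.78, 7.46, 7.53 and 7.87 on, 6.82, 6.99, 6.64 and 6.75 at 24 h, and 8.17, 7.88, 7.61 and 7.72 at 48 h. All 4 of its 48 h values fell within or above the on range. Its log2 difference was -0.86 at 24 h and 0.19 at 48 h (SE 0.14 each).

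A pair of oxidative stress genes shared with Egr1 the split of the 48 h tumors into replicates 2 and 4 above replicates 1 and 3. Osgin1, an oxidative stress-induced growth inhibitor, was at 8.67 to 8.93 on the on arrays and 7.60 to 8.10 at 24 h, and at 48 h it read 8.06, 9.17, 8.37 and 9.41. Hmox1, the heme oxygenase that breaks down heme, was at 8.39 to 8.80 on and 7.71 to 7.85 at 24 h, and at 48 h it read 7.57, 9.22, 8.20 and 9.12. In both genes replicates 2 and 4 exceeded all on values and replicates 1 and 3 fell short of them. Replicates 2 and 4 lay above 1 and 3 in 21 of 169 members (12.4%) and in 13.1% of all tested probes. These replicates come from different BeadChips. Of 23 probes for the 15 other antioxidant genes in the list that held Hmox1, 3 were lower and 1 was higher at 24 h, close to the 12.2% of all tested probes that were lower and below the 11.5% that were higher.

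**Figure D3:**
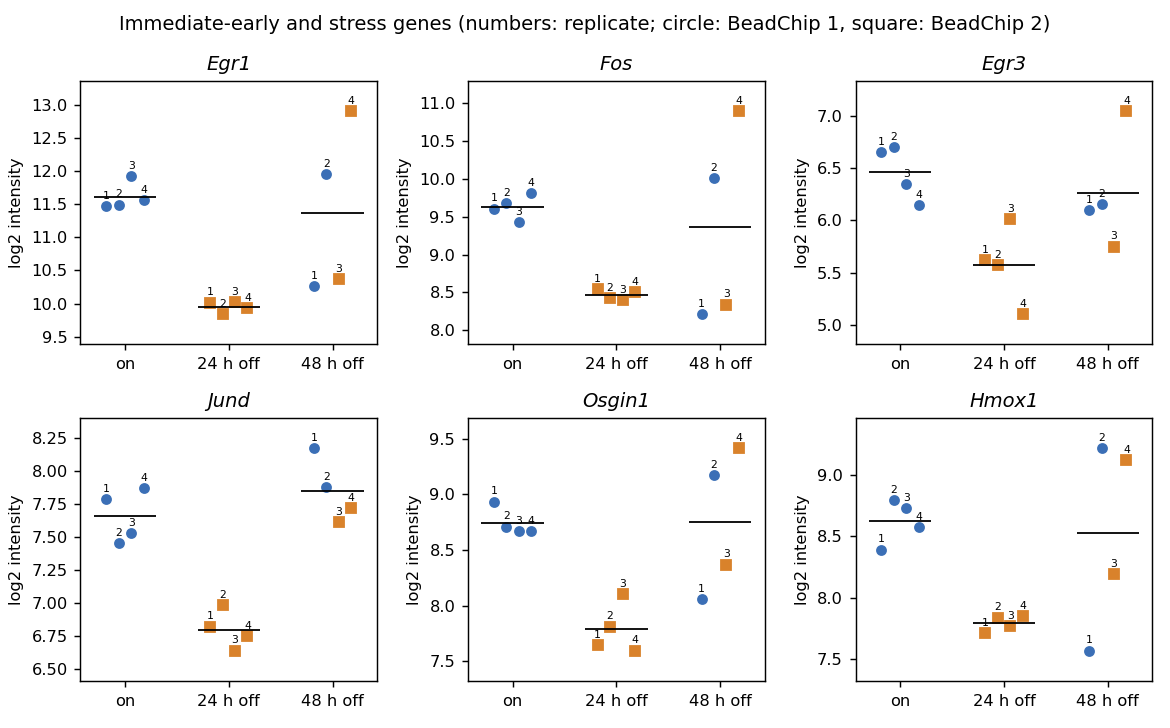
Log2 intensity of Egr1, Fos, Egr3, Jund, Osgin1 and Hmox1 on each array, with the replicate number beside each point, circles for BeadChip 1, squares for BeadChip 2 and a line at the group mean. Egr1 at 48 h splits into 10.27 and 10.37 for replicates 1 and 3 and 11.95 and 12.90 for replicates 2 and 4, and Jund at 48 h lies between 7.61 and 8.17.

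Many other genes of the MAP kinase pathway were low at both times. Among feedback and target genes of the pathway, Egr1, Egr3 and Fos met the rule. Of 32 probes for the other 22 genes, 18 were lower and 1 was higher at 24 h (median -0.67), and 20 were lower and 2 higher at 48 h (median -1.01). Of all tested probes 12.2% were lower and 11.5% higher at 24 h, and 11% were lower and 9.66% higher at 48 h. Dusp6, the phosphatase that dampens ERK, was lower at both times on all 3 of its probes, with differences from -1.25 to -1.14 at 24 h and from -1.84 to -1.55 at 48 h (limma adjusted p from 0.00357 to 0.0147 and from 0.00122 to 0.00241).

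Junb, a further AP-1 subunit, was not a member, since it was outside the limit at 48 h. It read 10.33 ± 0.29 on, 9.10 ± 0.22 at 24 h and 9.95 ± 0.16 at 48 h (SD, n = 4), a difference of -1.23 at 24 h (SE 0.15, limma adjusted p = 0.000342) and -0.38 at 48 h (limma adjusted p = 0.0961). From 24 h to 48 h it rose by 0.85 (limma adjusted p = 0.00278).

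Beyond these 4 factors, 13 members encode other transcription factors and cofactors, grouped by role after their values had been seen. Their median difference was -0.84 at 24 h and -0.08 at 48 h. Elf3, an epithelial factor of the ETS family, was among the brightest members, with 9.91, 10.18, 9.998 and 9.84 on, 8.99, 9.13, 9.18 and 8.71 at 24 h, and 9.70, 10.10, 9.94 and 9.45 at 48 h. Its 24 h values were all below the rest, with replicate 4 the lowest at both off times.

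Grhl2, a grainyhead factor that maintains epithelial identity, had 9.38 to 9.56 on, 8.22 to 8.84 at 24 h and 9.01 to 9.40 at 48 h. Bcl9l, a coactivator of beta-catenin, had 10.21 to 10.71, 9.32 to 9.84 and 10.09 to 10.75. Foxp4, a forkhead factor of lung epithelium, had 6.31 to 6.53, 5.4 to 5.94 and 6.56 to 6.67, so that every 48 h value lay above every on value. Purb, a single-strand DNA-binding protein, differed from on by -0.89 at 24 h. The member probes of Mitf, a factor of melanocytes and other lineages, and of Arid5b were undetected on all 4 arrays at 24 h. They were at least 1.45-fold and 1.27-fold lower there. Another Mitf probe was at -0.21 (limma adjusted p = 0.363). The other Arid5b probes were at -0.25 and 0.26 (limma adjusted p = 0.187 and 0.138), and the brighter of them was detected on all 4 arrays at 24 h.

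Signalling proteins made up the largest role group, with 20 probes for 17 genes (median -0.89 at 24 h and -0.06 at 48 h). Plxna2, a plexin receptor for semaphorins, had an even course: 9.25, 9.32, 9.32 and 9.45 on, 8.26, 8.47, 8.09 and 8.12 at 24 h, and 9.13, 9.24, 8.99 and 8.93 at 48 h. No 24 h value reached the other groups, and every 48 h value fell short of the lowest on value. The difference was -1.10 at 24 h and -0.26 at 48 h (SE 0.11 each).

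Igf1r, the receptor for insulin-like growth factors, read 8.85, 9.05, 8.95 and 8.91 on, 7.81, 8.30, 7.69 and 7.72 at 24 h, and 8.71, 8.83, 8.37 and 8.67 at 48 h. Its difference was -1.06 at 24 h and -0.30 at 48 h (SE 0.14 each), which put it just inside the limit at 48 h on the scale of the rule. Its other tested probe was also lower at 24 h, by -0.81 (limma adjusted p = 0.00271), and was still at -0.64 at 48 h (limma adjusted p = 0.0108).

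Rictor, the defining subunit of mTOR complex 2, was the only gene with 3 member probes. They differed from on by -1.01, -0.85 and -0.99 at 24 h and by 0.07, -0.20 and -0.15 at 48 h. Another probe missed the rule narrowly at 48 h, and the brightest Rictor probe went from 10.75 ± 0.07 on to 9.88 ± 0.25 at 24 h and 10.39 at 48 h (SD, n = 4), a difference of -0.87 at 24 h (limma adjusted p = 0.00186). The remaining tested probe, a dim one, was at -0.21 (limma adjusted p = 0.409).

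Kalrn had 2 member probes. On its brighter probe it read 7.21, 7.34, 7.11 and 7.25 on, 6.35, 6.07, 6.10 and 6.32 at 24 h and 7.55, 7.26, 7.46 and 6.61 at 48 h, where replicate 4 alone stayed low. Its other probe was undetected on all 4 arrays at 24 h and at least 1.56-fold lower there than on. Pde4d, a phosphodiesterase that breaks down cyclic AMP, Camk2d, a calmodulin-dependent kinase, and Cdcp1, a membrane substrate of SRC kinases, were at -1.10, -1.0 and -0.80 at 24 h. Of 7 other Camk2d probes 1 was lower at 24 h, at -1.55, and it stayed at -0.72 at 48 h (limma adjusted p = 0.00344). The brightest was at -0.20 at 24 h (limma adjusted p = 0.387). Of 2 other Pde4d probes 1 was lower, at -0.38, and all 3 other Cdcp1 probes were lower, at -0.63 to -0.46.

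Chromatin proteins gave 11 probes for 9 genes, at a median of -0.89 at 24 h and -0.14 at 48 h. Baz2a, a subunit of the complex that silences ribosomal RNA genes, read 6.84, 6.36, 6.62 and 7.18 on, 5.70, 5.78, 4.96 and 5.62 at 24 h, and 6.98, 6.65, 6.58 and 6.12 at 48 h. The 24 h values did not reach the others, and 48 h replicate 4 was below the on range. The member probe of Pwwp2b was undetected on all 4 arrays at 24 h and at least 1.53-fold lower there. Its 2 other probes were brighter and detected on all 4 arrays at 24 h. They were at -0.31 and -0.42 (limma adjusted p = 0.118 and 0.0168). The chromatin remodeller Chd1 had 2 member probes, at -1.01 and -0.97, and both Tnrc18 probes were low, at -0.89 and -0.61. The member probe of Cdk12, a kinase of RNA polymerase II, was undetected at 24 h and at least 1.24-fold lower there. Its other probes were at -0.14 and -0.61 (limma adjusted p = 0.485 and 0.0168), and the first was detected on all 4 arrays at 24 h.

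RNA processing and decay contributed 9 genes, all between -0.97 and -0.81 at 24 h and between -0.24 and 0.21 at 48 h. They included Upf1, the helicase of nonsense-mediated decay, Ddx6, a helicase of processing bodies, Dicer1, which cuts microRNA precursors, the splicing factor Srek1, and Zc3h13, a subunit of the RNA adenosine methylation complex. Their range at 24 h lay near the interquartile range of all members (-0.94 to -0.76). The rule bounds it on the upper side, so nothing is read from its width.

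Ribosome synthesis was represented by Polr1a, the catalytic subunit of RNA polymerase I, and by Ddx27 and Las1l, which process ribosomal RNA precursors. Polr1a read 6.67, 6.21, 6.21 and 6.59 on, 5.56, 5.72, 5.52 and 5.17 at 24 h, and 6.45, 6.45, 6.23 and 5.92 at 48 h. Its 3 other probes were lower at 24 h as well, by -0.51, -0.44 and -0.41 (limma adjusted p = 0.0203, 0.00406 and 0.0292), and all 3 rose again from 24 h to 48 h (limma adjusted p = 0.0345, 0.00311 and 0.0414). Ddx27 was at -1.15 at 24 h and -0.16 at 48 h, but its other tested probe was at -0.17 at 24 h (limma adjusted p = 0.250). Las1l was at -0.79 at 24 h on its member probe. Its brightest probe was at -1.55 at 24 h and did not return, at -1.18 at 48 h (limma adjusted p = 0.00151). The remaining Las1l probe was at -0.47 at 24 h and -0.42 at 48 h (limma adjusted p = 0.117 and 0.173).

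In a list of ribosome biogenesis genes, 20 probes belonged to 15 genes other than Polr1a. Of these, 12 were lower and 0 higher at 24 h (median -0.39), 8 were lower and 0 higher at 48 h (median -0.35), and 4 were higher and 3 lower at 48 h than at 24 h. The shares of all tested probes were 12.2% lower and 11.5% higher at 24 h and 11% lower and 9.66% higher at 48 h. For 48 h against 24 h 12.9% were higher. The nucleolar helicase Ddx21 had a probe at -2.03 at 24 h (limma adjusted p = 0.000121) and -0.51 at 48 h (limma adjusted p = 0.0820), outside the limit at 48 h, and another probe at -0.38 (limma adjusted p = 0.0127).

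The ubiquitin pathway was led by Ubr4, a large ubiquitin ligase, with 8.81, 8.69, 8.28 and 8.29 on, 7.25, 7.78, 6.91 and 6.67 at 24 h, and 8.70, 8.66, 8.29 and 7.82 at 48 h. Its difference of -1.37 at 24 h (SE 0.25) was among the largest, and 48 h replicate 4 came close to the highest 24 h value. The other 5 genes of this group, Birc6, Usp37, Otud7b, Rnf213 and Ubxn7, were between -0.98 and -0.64 on their member probes. Their further tested probes, and that of Ubr4, showed less of a drop or none. At 24 h they were at 0.12 for Ubr4, -0.11 for Usp37, 0.10 and 0.11 for Otud7b and 0.15 for Ubxn7, with 0 called lower. Those of Ubr4 and Usp37 were dimmer than the member probes. For Birc6 they were at -0.53 and -0.38, with 1 called lower. The member probe of Ubxn7, an adaptor of the segregase p97, ended 0.58 above on at 48 h.

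In membrane traffic, the member probe of Golga2, a matrix protein of the cis-Golgi, overshot its start. It had 9.17, 8.99, 8.99 and 8.76 on, 8.04, 8.10, 7.79 and 7.56 at 24 h, and 9.91, 10.12, 9.26 and 9.29 at 48 h. The 3 groups did not overlap, and the 48 h group was the highest. The drop was not seen on every Golga2 probe. At 24 h its 3 other probes were at 0.04, 0.09 and -0.38 (limma adjusted p = 0.854, 0.576 and 0.0378). At 48 h they were at 0.29, 0.44 and -0.17. Rab15, a small GTPase of endosomal recycling, was the brightest member with a symbol, with 12.82, 12.62, 12.57 and 12.62 on, 11.63, 12.19, 11.67 and 11.36 at 24 h, and 12.61, 12.65, 12.65 and 12.15 at 48 h. Only replicate 4 stayed low at 48 h, just below the highest 24 h value.

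Several further members stood out by size or brightness. Parm1, a mucin-like membrane protein, read 8.10, 8.81, 8.52 and 7.47 on, 6.26, 7.34, 6.70 and 6.58 at 24 h, and 8.0, 7.91, 8.55 and 7.61 at 48 h. Its 24 h values were low in all tumors, and its other probe was at -1.14 (limma adjusted p = 0.0168). Crybg2, a beta/gamma-crystallin domain protein, was at -1.29 at 24 h and 0.08 at 48 h. Nrn1, the secreted neurite factor neuritin, read 11.20 to 11.68 on, 10.27 to 10.63 at 24 h and 11.36, 11.79, 11.85 and 10.52 at 48 h, where replicate 4 again lay in the 24 h range.

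Eno2, an enolase of glycolysis, was at -0.83 at 24 h and 0.01 at 48 h. Of 24 probes of other glycolysis genes 12 were lower at 24 h (median -0.39) and 13 at 48 h (median -0.64), with 0 higher at either time. Of all tested probes 12.2% were lower and 11.5% higher at 24 h, and 11% were lower and 9.66% higher at 48 h. Kcnq1ot1, a long noncoding RNA of an imprinted domain, was at -0.87 at 24 h and 0.68 at 48 h. BC039771, a transcript known by its clone name, ended highest of all members at 48 h, with 5.02 to 5.57 on, 4.51 to 4.82 at 24 h and 6.0 to 7.04 at 48 h. The lowest point of all was the unannotated probe ILMN_1256701, at -2.57 (SE 0.54), with 7.58 to 8.41 on and 6.54, 4.28, 6.65 and 4.25 at 24 h, so its values at 24 h fell into 2 levels.

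Members of cilia and muscle had another course, with a median of -0.98 at 24 h and 0.73 at 48 h over 6 genes. Cfap65, a protein of the ciliary axoneme, read 5.48, 6.30, 6.62 and 5.29 on, 5.01, 5.26, 4.77 and 5.25 at 24 h, and 6.73, 7.76, 6.0 and 7.84 at 48 h. Replicates 2 and 4 were again the highest at 48 h. Eno4, an enolase of sperm tails, had 4.97 and 5.79 in 48 h replicates 3 and 1 but 6.83 and 6.88 in replicates 2 and 4. Of 11 probes for 7 marker genes of ciliated cells, 0 were called at 24 h against on (median -0.25). At 48 h 1 was higher than on (9.66% of all tested probes were), and 7 were higher than at 24 h (12.9% of all tested probes were). Their mean log2 intensity was 5.35 to 6.50 on, 5.24 to 6.01 at 24 h and 5.89 to 7.43 at 48 h, and the part of ciliated cells in these values was not tested.

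Ttn, the giant sarcomere protein titin, was detected on 2 of 4 on arrays, at 4.48, 4.63, 5.89 and 7.32, on 0 arrays at 24 h, and read 4.89, 6.90, 4.49 and 8.54 at 48 h. Pvalb, the calcium buffer parvalbumin of fast muscle, read 4.45, 4.56, 4.86 and 7.94 on, 4.30 to 4.39 at 24 h, and 4.48, 4.95, 4.50 and 11.25 at 48 h. They were at least 1.76-fold and 1.61-fold lower at 24 h than on, where 2 of 4 arrays measured each. These values rest on on replicate 4: without it Ttn was at least 1.18-fold lower and Pvalb had no fold, since its on mean fell under the limit of detection at 24 h. Both genes were high in single tumors and neither was called in any comparison.

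The 10 probes of heart and skeletal muscle markers had a mean of 5.37, 5.19, 7.67 and 8.59 on, 5.55 to 6.09 at 24 h, and 6.53, 9.18, 5.34 and 8.36 at 48 h. They were bright in the tumors where Ttn was bright, and 0 of the 10 were called in any comparison. Their part in the result was not tested. Pgm5, a phosphoglucomutase relative of muscle adhesion sites, did not follow them: it read 5.88, 5.85, 6.20 and 6.20 on, 4.64, 4.83, 4.39 and 4.74 at 24 h, and 5.64, 6.20, 6.53 and 6.13 at 48 h.

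**Figure D4:**
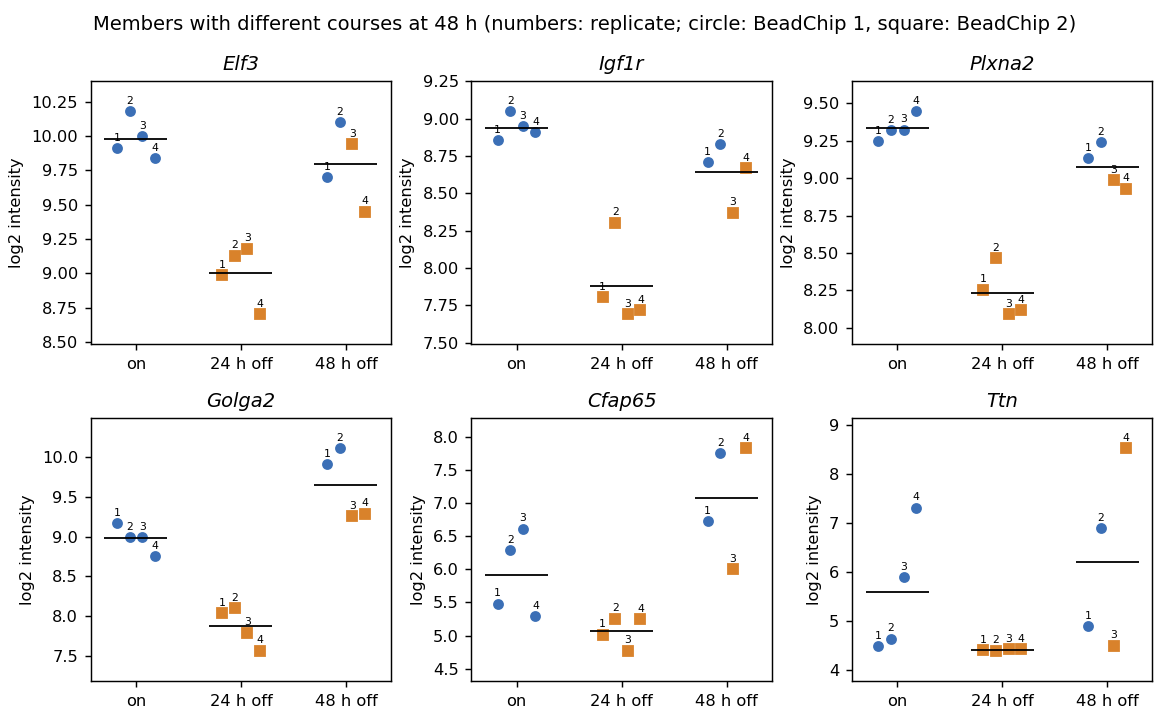
Log2 intensity of the member probes of Elf3, Igf1r, Plxna2, Golga2, Cfap65 and Ttn on each array, with the replicate number beside each point, circles for BeadChip 1, squares for BeadChip 2 and a line at the group mean. Golga2 at 48 h lies at 9.26 to 10.12, above every on value, Plxna2 at 8.93 to 9.24 lies just under them, and Ttn ranges from 4.49 to 8.54 within the 48 h group.

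Markers of several other cell types were higher at 24 h, when the members were low, where 11.5% of all tested probes were higher. Of 17 probes of endothelial markers 13 were higher and 0 lower (median 0.86), as were 10 of 20 of fibroblast and smooth muscle (0.84), 8 of 16 of macrophages (0.84) and 8 of 12 of alveolar type 1 cells (0.86, with 1 lower). With the chip term the medians were 0.96 for endothelium, 0.55 for fibroblasts and smooth muscle, 0.25 for macrophages and 0.82 for type 1 cells. In smaller lists, 4 of 5 mesothelium probes were higher and 1 lower at 24 h (median 1.30). Higher too were 3 of 4 erythrocyte probes (1.54) and 3 of 7 neutrophil probes (0.44). With the chip term these medians were 1.22, 0.81 and 0.42. Gastrointestinal-type epithelium had 3 of 10 probes higher and 1 lower (-0.06), and mast cells and basophils 1 of 3 higher. Few or no calls were made for club cells, T and NK cells, and B and plasma cells. For club cells 2 of 17 probes were higher (median -0.06, and 0.47 with the chip term), as were 1 of 11 of T and NK cells and 0 of 9 of B and plasma cells. Heart and skeletal muscle had 0 of 10 called (median -0.81, and 0.10 with the chip term). Their mean log2 intensity per array at 24 h was 8.77 to 9.35 for endothelium, against 7.96 to 8.24 on, and 8.56 to 8.73 for macrophages, against 7.44 to 7.93. Of 26 probes of alveolar type 2 markers, 3 were lower and 0 higher at 24 h (median -0.04). In bulk tumors, fewer cells of a type and less RNA per cell cannot be told apart, and the part of cell makeup in the drop was not tested. The type 1 marker probe that was lower was Igfbp6, a binding protein of insulin-like growth factors and itself a member, at 7.94 to 8.42 on, 6.81 to 7.44 at 24 h and 7.89 to 8.30 at 48 h.

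The rule did not use the annotation of the probes, and in this the members differed in makeup from the array. Probes designed on AK accessions, which are full-length mouse cDNA clones, made up 37 members (21.9%), against 5.66% of tested probes and 9.03% of the 2590 probes lower at 24 h. Probes with no annotated accession made up 26%, against 16.7% and 16.7%, and RefSeq messenger RNA probes 52.1%, against 76.9% and 73.6%. The genes were also longer: the genomic span had a median of 50.2 kb (interquartile range 20 to 107 kb, 127 probes), against 24.4 kb for tested probes and 24.9 kb for probes lower at 24 h. For members on RefSeq accessions alone the median was 37.8 kb, against 23.5 kb and 22.9 kb. The rule bears in part on brightness and detection, since it asks for low values at 24 h and for detection on 4 arrays. The members' median mean log2 intensity was 6.16, against 6.79 and 7.34. At 24 h 104 members were detected on all 4 arrays and 20 on none, whereas 158 were detected on all 4 both on and at 48 h. For those 20 probes only a bound exists, from at least 1.14-fold to at least 1.76-fold lower, and it reached 1.5-fold in 5.

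Other probes of the same genes showed part of the drop. For 80 genes there were 151 further tested probes, which by definition had not met the rule and which read the same RNA. At 24 h 124 of them were below 0, 49 (32.5%) were lower and 2 higher, with a median of -0.33. From 24 h to 48 h 41 were higher and 3 lower. Of all tested probes 12.2% were lower and 11.5% higher at 24 h, and 12.9% were higher at 48 h than at 24 h. As with Polr1a and Parm1, all other probes were lower at 24 h for Elf3, at -1.19 and -0.68, for Foxp4, at -0.63 and -0.55, and for Iqgap1, a scaffold of the actin cytoskeleton, at -0.61 and -0.43. Of these, the Elf3 probe at -0.68 did not return, at -0.80 at 48 h (limma adjusted p = 0.0182).

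In other genes the probes disagreed. Of the genes whose member probes all rested on cDNA clones, 26 also had RefSeq probes. The clone probes had a median of -0.82 at 24 h, and the 42 RefSeq probes a median of -0.28, with 15 of them lower and 0 higher. Of all tested probes 12.2% were lower and 11.5% higher. For Chd1 the RefSeq probes were at -0.06 and 0.03 while the clone probes were at -1.01 and -0.97. For Lmo4, a LIM-domain cofactor, the RefSeq probe was 11.53 ± 0.07 on and 11.58 ± 0.11 at 24 h (SD, n = 4) and the clone probe went from 8.12 to 7.22. Myh9, the heavy chain of nonmuscle myosin, had a dim member probe at -0.92 and a bright RefSeq probe that was higher, at 0.35 (limma adjusted p = 0.0260). Dicer1, with -0.89 on its clone probe, had -0.31 and 0.01 on its RefSeq probes (limma adjusted p = 0.151 and 0.943). For such genes the drop was seen on the member probe and not on every probe of the gene. Which transcripts each probe reads was not tested.

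**Figure D5:**
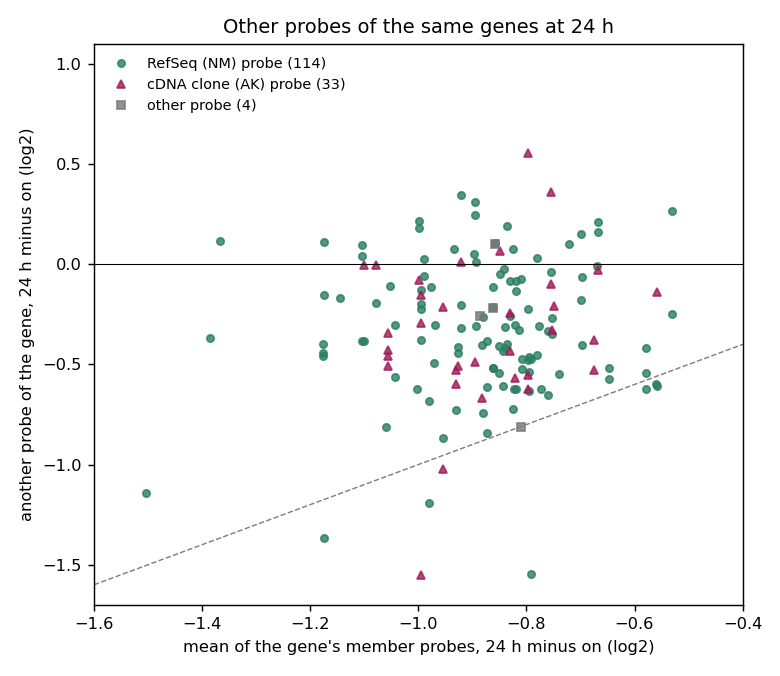
Each point is a further tested probe of a member gene, with the mean log2 difference of the gene's member probes at 24 h on the horizontal axis and its own difference on the vertical axis, by the kind of accession it was designed on. Of the 151 points 124 lie below 0, and most lie above the dashed line of equal differences, with a median of -0.33.

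Just inside the limit at 24 h, on the scale of the rule, were Zbtb43 at -0.8 and Cdcp1 and Snx29 at -0.8025, and just outside were an unannotated probe at -0.7975 and Prpf40b at -0.795. Eif3k fell outside by rounding alone, with a difference that prints as -0.8. Just inside the limit at 48 h were Ovgp1 at -0.2925 and Zfp326 and Igf1r at -0.29, and just outside were unannotated probes at -0.3 and -0.3025 and a Rictor probe at -0.3075.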

How the data were processed

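Total RNA of 12 tumor samples was labelled with biotin and read on 12 arrays of 2 BeadChips. The scanner table as deposited gives the mean intensity of each probe's beads (linear), with standard error, bead number and detection p-value, per the file headers. It has 24 further columns, left unused. A second deposited table holds log2 values. Raised to the power of 2, 100% of them were whole hundredths (within 0.001 hundredths) and ranked probes as the scanner intensities did (rank correlation at least 0.999994), so their log2 had been taken a second time. The members were chosen after restoring the first log2 scale, with the direction and scale of these values inferred from this match.

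Intensities were corrected and quantile-normalized with neqc (limma 3.58.1, R 4.3.3, offset 16), and 21232 probes with detection p below 0.05 on 4 or more arrays were tested in 1 limma model of the 3 groups, with Benjamini-Hochberg adjustment over all of them (9 residual and 3.51 prior degrees of freedom). The model was tested on simulated data. "At least" folds set the on mean against the 24 h mean, with each 24 h value raised to that array's lowest detected value where it was below it. Log2 values have no unit, and the number of arrays limits the precision. The sources used here name no scanner software.

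Of all probes, 34885 had 1 gene symbol in the platform annotation, 18 had several and 10378 had none, and 34807 matched a gene of GRCm38.p6. Genes were named by rule: the 12 with the lowest difference at 24 h, the 8 with the largest return, the 6 brightest, those with 2 or more member probes, those in a gene or marker list, and the 3 nearest each limit on either side. Further members and the role groups, covering 95 genes, were chosen after their values were seen. The members and lists were chosen with earlier results of these data known. The alternatives covered background correction, normalization, source table, filter, BeadChip, replicate number, array weights and leaving out each array. Same-numbered samples did not deviate together: in 3 of 12 pairs the correlation was over 0.1 (range -0.295 to 0.215). The oncogene is not reported here. Figures were drawn with matplotlib 3.10.9.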

Additional observations from a re-analysis of the deposited data

Results flagged for a closer look

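Among 129 groups of 4 values (43 named member probes in 3 groups), 5 held 1 array far from the other 3, and chance gives about 5% of groups. Pvalb stood apart on on replicate 4, at 7.94 against 4.45 to 4.86, and on 48 h replicate 4, at 11.2 against 4.48 to 4.95. Fermt1, an integrin adaptor, was at 4.60 on 24 h replicate 2 against 4.41 to 4.44, a probe undetected on all 4 arrays there. A Rictor probe was at 6.93 on on replicate 3 against 7.39 to 7.44. Rab15 was at 12.15 on 48 h replicate 4 against 12.61 to 12.65. The change from on differed between 24 h and 48 h in 155 members, which were called higher at 48 h than at 24 h, a difference that the choice of members fixes in part.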

How the results depend on the processing

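With the BeadChip as a fixed term, 126 probes were called for 24 h against on instead of 5025 and 1262 for 48 h against 24 h instead of 5664, and members called were 2 lower at 24 h, 15 at 48 h against on and 51 higher at 48 h than at 24 h. The cause was not tested. Without a filter on detection, 3 members were called at 48 h against on instead of 6. Moving the limit at 24 h to -0.6 or -1 gave 398 or 59 members instead of 169, and moving the limit at 48 h to -0.1 gave 107. The rule on the normalized intensities gave 118, of which 115 were shared with the 169. With d48 taken from the 48 h arrays on the chip of the on arrays it gave 205, and from those on the other chip 125. Rounding to hundredths, added after the data had been seen, gave 170. Leaving out 1 array at a time gave 151 to 240 members (240 without 24 h replicate 2). It gave 3433 to 5122 probes called for 24 h against on, 2810 (without on replicate 2) to 4813 for 48 h against on and 3677 (without 48 h replicate 2) to 5882 for 48 h against 24 h. Members called were then 139 to 160 lower at 24 h, 3 (without 48 h replicate 1 or 2) to 12 (without 48 h replicate 3) at 48 h and 129 to 159 higher at 48 h than at 24 h. With a replicate block, 150 members were called lower at 24 h, 5 at 48 h and 153 higher at 48 h than at 24 h, over 4123, 3430 and 4718 probes, and the numbers did not pair the samples. Of 2054 recomputed values of named members, 0 were marked as reversed, 139 were no longer called (62 of them with the chip term) and 23 became called. Signs did move with the chip term over all 169 members. Those below 0 went from 169 to 164 for 24 h against on and from 94 to 50 for 48 h against on, counts on which the rule bears. At 24 h 20 members were undetected, where only a bound exists. With each on array left out, a choice added after the data had been seen, the bound of Pvalb was lost without on replicate 4 and that of Ttn ran from 1.18-fold to 2.27-fold.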
